A study of Mus musculus with 18 samples.

Results

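The cytosolic ribosomal protein genes encode the proteins of the large subunit (Rpl genes, including the stalk proteins Rplp0, Rplp1 and Rplp2) and of the small subunit (Rps genes) of the ribosome that translates cellular messenger RNAs. They were chosen by name: symbols beginning Rpl or Rps followed by a number, p and a number, or a, without the Rps6k kinases, binding proteins, named pseudogenes and clone names. The rule found 86 of 24732 features, 49 of them of the large subunit, 34 of the small subunit and 3 of the stalk. Of these, 83 reached a TPM of 1 (TPM: reads per transcript length, scaled to the same total in each library) in at least 2 libraries and were tested, among 12303 features in all. The other 3, Rpl10l, Rpl26 and Rps27rt, were listed at 0 in every library. Rpl26 encodes a core subunit protein, so a listing at 0 says nothing about its expression.

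Ribosomal proteins are made in near-equal numbers, since each ribosome holds about one copy of most of them, and their messenger RNAs are among the most abundant of a growing cell. Their transcripts typically begin with a C followed by a run of pyrimidines, the terminal oligopyrimidine (TOP) tract, through which mTOR signalling sets their translation. Some have roles outside the ribosome: Rpl5 and Rpl11 bind and restrain Mdm2, which destroys p53. Bhlhe40 and Bhlhe41 are transcriptional repressors of the basic helix-loop-helix family that bind the sequence CACGTG.

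RNA was sequenced from sorted macrophages of C57BL/6 mice, labelled either wild type (WT, Bhlhe40+/+Bhlhe41+/+) or double knockout (DKO, Bhlhe40-/-Bhlhe41-/-). There were 3 populations, each with 2 WT and 2 DKO libraries, described as biological replicates. Steady-state alveolar macrophages were sorted from digested lung as CD11c+ SiglecF+ CD11b low cells. Alveolar macrophages of mixed bone marrow chimeras were sorted by the same gate, with WT cells CD45.1+ and DKO cells CD45.2+, so that allotype and genotype cannot be told apart there, and peritoneal macrophages were sorted from lavage as CD11b+ F4/80+ Tim4+ cells of intermediate MHCII. Libraries held 6.59 M reads (M, mega) in DKO chimera replicate 1 and 16.5 to 29.3 M reads in the other 11, and the members took 65608 to 579776 reads per library.

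Bhlhe40 stood at 65.7 to 243 TPM in DKO and 213 to 940 TPM in WT libraries and was lower in both DKO libraries of each population. Bhlhe41 was at 75.4 to 156 TPM in DKO and 1.90 to 100 TPM in WT libraries, higher in DKO in each population. These are values of whole genes, which do not show whether the reads come from deleted exons. Alveolar markers (Siglec5, Itgax, Pparg, Chil3, Car4 and Krt19) summed to 11249 to 20470 TPM in alveolar and 6.37 to 12.1 TPM in peritoneal libraries. Chil3 held most of the alveolar sum, at 8448 to 17359 TPM, and did not pass between genotypes in either alveolar setting. In steady state and the chimeras Krt19 (-1.68 and -2.70), Siglec5 (-1.14 and -1.25) and Car4 (-1.06 and -0.42) fell, and Itgax (0.66 and 0.43) rose. Pparg fell in steady state only (-0.76). Peritoneal markers (Gata6, Alox15, Timd4, Icam2 and Itgam) summed to 4.69 to 32.7 TPM in alveolar and 11518 to 14890 TPM in peritoneal libraries. Of markers of other cells, those of neutrophils summed to 280 to 291 TPM in steady-state DKO against 46.6 to 55.5 TPM in steady-state WT libraries, and to 132 to 140 against 35.8 to 44.0 TPM in the chimeras. Csf3r carried most of it, at 119 to 200 TPM in alveolar DKO and 14.3 to 37.6 TPM in alveolar WT libraries, while S100a9 and Retnlg stayed at or under 0.683 TPM. S100a8 rose in steady state, from 19.9 and 17.4 to 79.8 and 103 TPM (2.22 on the log2 scale, limma adjusted p = 7.9e-05), and did not pass in the chimeras (-0.42). Lung epithelial markers summed to 78.0 to 96.1 TPM in DKO and 188 to 223 TPM in WT chimera libraries, where Cdh1, Scgb1a1, Sftpb and Sftpc fell. In steady state the sums were 185 to 199 TPM in DKO and 156 to 198 TPM in WT libraries, with markers moving both ways. There Cdh1 fell (-2.47), Scgb1a1 (0.88) and Sftpb (0.83) rose, and Sftpc (0.66) did not pass. Cdh1 was at 69.5 to 98.9 TPM in the alveolar WT libraries. Krt18, also in the epithelial list, was at 0.171 to 1.01 TPM in alveolar libraries and was not tested. The part of these differences in the results was not tested. In such bulk libraries, fewer cells of a type and less RNA per cell cannot be told apart.

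To show the start of the transcripts at issue, RefSeq promoter windows (GRCm38.p6, 250 bases before to 50 after the annotated start) were matched by symbol for 65 of the 86 members. A C followed by at least 4 pyrimidines, beginning within 5 bases of the annotated start on the transcribed strand, was found in 30 of these 65 members (46.2%) and in 21.2% of all 27025 genes with a window. Members of a chromosome not used for display were left aside. Among the other tract-bearing members, the 6 with the lowest steady-state genotype difference are shown. Each is given as 30 bases centred on the start, 5′ to 3′ on the gene's strand. Capitals mark the matched stretch, from the C nearest the start that met the rule.
Rps15a (chr7:118116133-118116162, minus strand): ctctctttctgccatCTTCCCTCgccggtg
Rps6 (chr4:86857353-86857382, minus strand): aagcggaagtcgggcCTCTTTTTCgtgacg
Rpl39 (chrX:37085208-37085237, minus strand): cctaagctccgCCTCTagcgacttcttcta
Rps24 (chr14:24490663-24490692, plus strand): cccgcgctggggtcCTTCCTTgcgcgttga
Rpl22l1 (chr3:28805493-28805522, plus strand): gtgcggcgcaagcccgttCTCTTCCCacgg
Rpl35 (chr2:39005117-39005146, minus strand): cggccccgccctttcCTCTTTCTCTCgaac
In Rps15a, Rps6 and Rpl35 a matching C lay at the annotated start itself, so the capitals begin there. Pyrimidines also lie directly before the capitals in these genes, in Rps24 and in Rpl22l1. Their full runs therefore begin upstream of the capitals.

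The CACGTG hexamer, searched on both strands (it is its own reverse complement), was in the window of 6 of 65 members (9.23%), Rpl13a, Rpl14, Rpl19, Rpl23, Rpl34 and Rps19, and in 8.09% of all genes. In the pair with the hexamer nearest the start, shown as 30 bases around the hexamer in capitals, it began 3 bases before the annotated start of Rpl23, and so spanned it, and 19 bases before that of Rpl19.
Rpl23 (chr11:97782425-97782454, minus strand): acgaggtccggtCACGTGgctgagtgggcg
Rpl19 (chr11:98026679-98026708, plus strand): tacccagaggacCACGTGaccaaacgccct
All 6 were tested, and none was called higher in DKO cells on the TPM scale. The same held for all 83 members tested, beside 12.2%, 13.7% and 6.8% of all features called higher in the steady-state, chimera and peritoneal comparison. The absence of higher calls is therefore not particular to these 6. Rpl13a was called higher in peritoneal DKO cells once a trend with transcript length was removed, as were 10.8% of all features.

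In WT cells the members spanned several orders of magnitude in TPM, a unit per transcript length. The stalk protein gene Rplp1 was the highest in both alveolar WT groups, at 3516 and 3373 TPM in steady state and 3918 and 4158 TPM in the chimeras. Rps29, a small-subunit protein, was the highest in peritoneal WT cells, at 5589 and 5238 TPM. In all, 21 members reached 1000 TPM in at least 1 library. At the other end, Rpl5, Rps27 and Rpl30 stayed under 10 TPM in every library, with Rpl5 between 0.858 and 2.35 TPM. Ribosomal protein genes have many processed pseudogene copies of near-identical sequence, and how reads shared between copies were counted is not given in the sources used here. Levels of one member against another are therefore uncertain. That a member's reads were counted alike in all libraries is assumed here and is not stated in those sources.

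**Figure D1:**
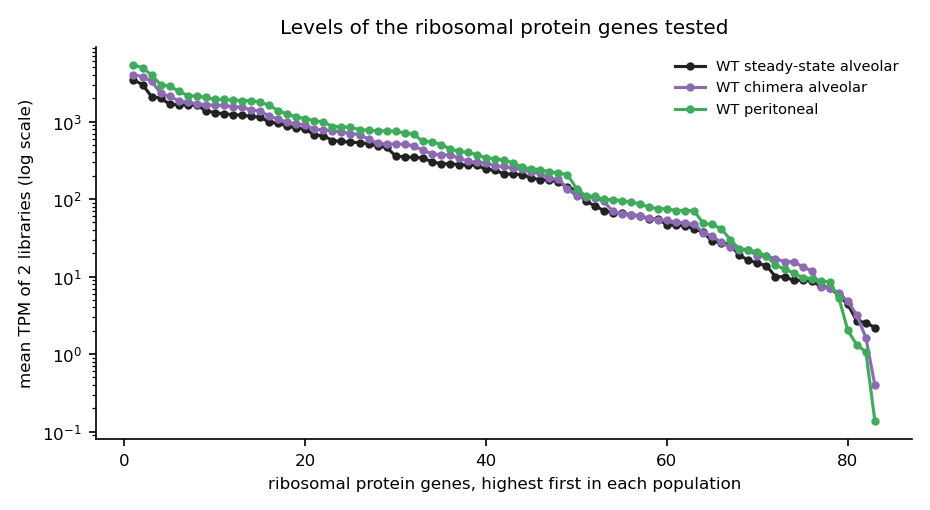
Mean TPM of 2 WT libraries (log scale) for each of the 83 tested ribosomal protein genes, ordered from highest to lowest separately in steady-state alveolar, chimera alveolar and peritoneal macrophages. The highest point is Rplp1 on both alveolar curves and Rps29 on the peritoneal curve.

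Added together, the members held a smaller share of the library in DKO cells of all 3 populations. WT steady-state alveolar libraries had shares of 4.19% and 4.13%, and both DKO libraries 3.18%. Among chimera libraries, those of WT cells had 4.93% and 5.16% and those of DKO cells 3.23% and 4.01%. Peritoneal libraries gave 6.51% and 6.34% in WT and 5.89% and 5.77% in DKO. The WT and DKO values did not overlap in any population, and the lower DKO chimera value came from the library of least depth. As a ratio of means, DKO over WT was 0.764 ± 0.00830 in steady-state alveolar, 0.717 ± 0.111 in chimera alveolar and 0.907 ± 0.0223 in peritoneal cells (propagated SD, n = 2 libraries per group). The ratio of summed large-subunit to summed small-subunit TPM lay between 0.645 and 0.721 in all 12 libraries. A share of TPM is relative to everything else in the library: with the 20 highest non-member features left out of the denominator, the steady-state ratio was 0.827.

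**Figure D2:**
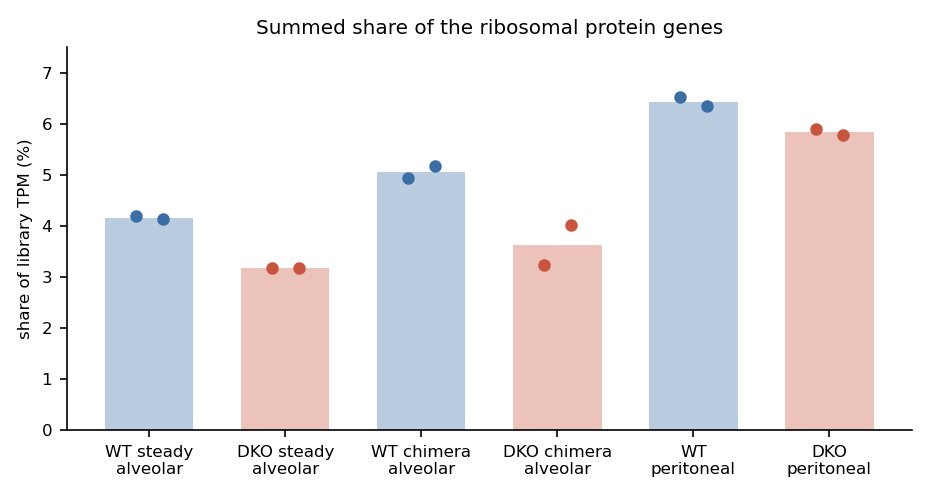
Share of each library's TPM held by the ribosomal protein genes (percent). Bars are means of 2 libraries and points are the libraries, WT in blue and DKO in red; the DKO points lie under the WT points in each population.

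The first comparison asked how the loss of both factors alters alveolar macrophages in the undisturbed lung. Of the 83 members tested, 58 fell, 0 rose and 25 did not pass (limma on log2(TPM + 1), Benjamini-Hochberg adjusted p under 0.05 over all features). In the same comparison 39.4% of all features were called lower and 12.2% higher, so lower calls were frequent throughout the library. Among non-members with a mean TPM of at least 100 the shares were 40% and 19.2%. The members' median difference was -0.48 on the log2 scale against -0.22 over all features, and 81 of 83 members lay below 0. Both DKO libraries were below both WT libraries for 78 members, as for 57.2% of all features tested. When libraries were rescaled so that the median feature did not differ, 22 members fell and 0 rose, with a member median of -0.22, against 17.9% of all features called lower.

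The lowest member was Rpl23a, a large-subunit protein at the exit of the peptide tunnel. It was at 62.5 and 70.6 TPM in WT and 40.8 and 27.1 TPM in DKO libraries, a log2 difference of -0.98 ± 0.16 (SE, limma adjusted p = 0.00097). Rpl7, a large-subunit protein, was at 556 and 554 TPM in WT and 325 and 253 TPM in DKO libraries, a difference of -0.95 ± 0.11 (limma adjusted p = 0.00011). Neither gene's WT and DKO values overlapped, and DKO replicate 2 was the lower DKO library for both. The small-subunit gene Rps15a, whose start is shown above, fell from 47.4 and 46.3 TPM to 28.2 and 20.4 TPM, by 0.94 on the log2 scale. Rpl10a, a large-subunit protein, was at 44.5 and 47.5 TPM in WT and 31.0 and 19.0 TPM in DKO libraries, with a difference of -0.89 ± 0.21 (limma adjusted p = 0.0061). These genes, with Rpl3l described below, kept their call when any 1 of the 4 libraries was left out and when libraries were rescaled.

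Rps6, the small-subunit protein phosphorylated by the S6 kinases downstream of mTOR, was at 25.2 and 26.4 TPM in WT and 17.3 and 11.6 TPM in DKO libraries, lower by -0.81 ± 0.15 (limma adjusted p = 0.0016). Rplp0, the base of the stalk that recruits elongation factors and a gene often used as a reference for normalization, was at 839 and 810 TPM in WT and 508 and 541 TPM in DKO libraries, a fall of -0.65 ± 0.06 (limma adjusted p = 3.5e-05). Its partner Rplp2 fell by 0.31 on the log2 scale, a call lost without WT or DKO replicate 2 (-0.23 and -0.20), and Rplp1 did not pass, at 3516 and 3373 against 3139 and 3291 TPM. The 3 stalk genes therefore spanned -0.65 to -0.10 within the same libraries. Among members with known roles in disease or outside the ribosome, Rpsa (also a laminin receptor) fell by 0.70, Rps24 by 0.64, Rps3 (also a DNA repair endonuclease) by 0.51, Rps19 by 0.50 and Rpl11 by 0.49, all past the threshold. Mutations of RPS19 and RPS24 cause Diamond-Blackfan anaemia in humans. Rpl38 (-0.40, limma adjusted p = 0.051) and Rpl5 (-0.38, limma adjusted p = 0.12) did not pass. The smallest falls that passed were those of Rpl15, Rplp2, Rpl13a, Rpl14 and Rps9, between -0.38 and -0.28.

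In mixed chimeras WT and DKO bone marrow cells are given together, so the comparison asks which differences are seen when both develop in one host. Whether same-numbered libraries came from the same animals is not given in the labels. Here 65 members fell, 0 rose and 18 did not pass, where 13.6% of all features were called lower and 13.7% higher. Among non-members with a mean TPM of at least 100, 24.6% were called lower and 17.4% higher. The member median was -0.51, against 0.01 over all features. For 75 members both DKO libraries lay below both WT libraries, as for 30.6% of features. With libraries rescaled, 66 fell, against 15.1% of all features. The count rested in part on single libraries: 40 members fell without DKO chimera replicate 1, the library of least depth, and 38 without WT chimera replicate 2. A fit of the 4 chimera libraries alone called 13 members, all lower.

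Rpl27 was lowest, at 16.8 and 14.4 TPM in WT and 5.76 and 9.87 TPM in DKO libraries (difference -0.95 ± 0.21, limma adjusted p = 0.0091). Rps16, at 856 and 950 TPM in WT and 417 and 605 TPM in DKO libraries, was lower by -0.84 ± 0.14 (limma adjusted p = 0.0019). For Rps14 the values were 1607 and 1693 TPM against 744 and 1182 TPM, a difference of -0.81 ± 0.16 (limma adjusted p = 0.0054). In all 3 genes the groups did not overlap, and DKO replicate 1 was the lower of the DKO libraries. Rpl17 fell by 0.87. Rplp0 was at 977 and 911 TPM in WT and 632 and 659 TPM in DKO libraries, lower by -0.55 ± 0.06 (limma adjusted p = 0.00022), with little spread between the DKO libraries. Rplp2 fell by 0.60 and kept its call without each library. Rplp1 fell by 0.49, a call lost without 3 of the 4 libraries, WT replicate 1 (-0.53), WT replicate 2 (-0.45) and DKO replicate 1 (-0.21). Among the smallest falls that passed were those of Rpl15 (-0.25), Rpl4 (-0.29), Rps4x (-0.30) and Rpl6 (-0.31). Of the genes with roles outside the ribosome, Rpsa, Rps3, Rps19, Rps24, Rpl11 and Rpl38 fell, by 0.45 to 0.69, whereas Rps6 (-0.44, limma adjusted p = 0.054) and Rpl5 (-0.04, limma adjusted p = 0.91) did not pass. Of 38 named members called here, 17 kept the call without each of the 4 libraries in turn, among them Rplp0, Rplp2, Rps14, Rps16 and Rpl17, while Rpl27 lost it without WT replicate 1 (-0.85) or DKO replicate 1 (-0.60).

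The alveolar comparisons share no library. Of the 83 members tested, 50 were called lower in both, beside 9.63% of all features tested. These 50 are 86.2% of the members' steady-state calls and 76.9% of their chimera calls. Over all features, 1185 were called lower in both, of 4842 called lower in steady state and 1668 in the chimeras. Most features lower in the chimeras were therefore also lower in steady state. Another 8 fell in steady state only, among them Rpl10a, Rpl22l1, Rpl39 and Rps6, and 15 in the chimeras only, among them Rpl27, Rps14, Rplp1 and Rps29; these are calls on one side of a threshold and do not show a difference between settings. Across the 83 members the differences in the pair of comparisons correlated with Pearson's r = 0.49 and Spearman's rho = 0.12. Without Rpl39l, a sparsely read gene above 0 in both, r was 0.18 over 82 members.

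**Figure D3:**
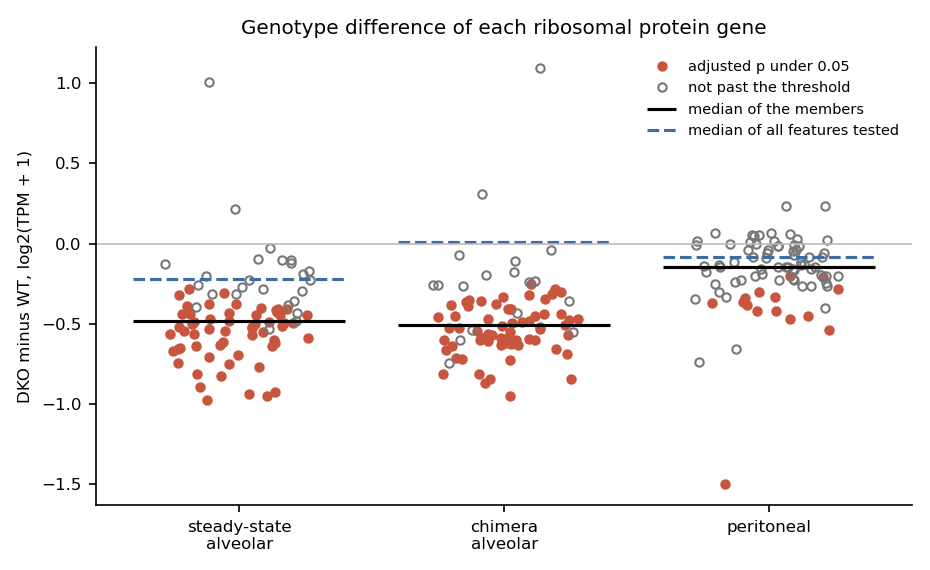
Genotype difference (DKO minus WT, log2(TPM + 1)) of each tested ribosomal protein gene in 3 macrophage populations; red points passed limma's adjusted p of 0.05, open points did not, black lines are member medians (-0.48, -0.51 and -0.15) and dashed lines the medians of all features tested (-0.22, 0.01 and -0.09).

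In peritoneal macrophages, whose WT cells had little Bhlhe41 transcript (3.68 and 1.90 TPM), 15 members fell, 0 rose and 68 did not pass. Of all features 16.1% were called lower and 6.8% higher, so the members' share of lower calls, 18.1%, was near the background. It was under the 26.8% called lower among non-members with a mean TPM of at least 100. The member median was -0.15, against -0.09 over all features. Both DKO libraries lay below both WT libraries for 57 members, beside 46.4% of features. Without WT replicate 2 only 2 members were called, without any other of the 4 libraries 3, and after rescaling 2, Rps4l and Rps27l. Rplp0 was at 1015 and 1041 TPM in WT and 841 and 845 TPM in DKO libraries, a difference of -0.29 ± 0.06 (limma adjusted p = 0.010). Rpl41, the smallest ribosomal protein, was at 1779 and 1810 TPM in WT and 1328 and 1265 TPM in DKO libraries, lower by -0.47 ± 0.11 (limma adjusted p = 0.014). Both genes' groups were apart, but the Rplp0 call was lost without 2 and the Rpl41 call without each of the 4 libraries. Rpl19 and Rpl11 fell by 0.45 and 0.42, calls lost without 2 and 3 of the libraries (-0.31 for Rpl19 without DKO replicate 2). Smaller falls that passed included those of Rpl8, Rps2 and Rps26, between -0.33 and -0.21. Rpl7, at 884 and 839 TPM in WT and 880 and 798 TPM in DKO libraries, overlapped between genotypes (-0.04, limma adjusted p = 0.87), as did Rps4x and Rps15a.

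Whether the genotype difference itself varied between populations was tested by interaction. Between chimera and steady state, Rpl7, Rps4x and Rpl4 had a difference nearer 0 in the chimeras and 0 members were further below, where 19.9% of all features had a positive and 4.52% a negative interaction. For Rpl7 the interaction was 0.56 ± 0.16 (limma adjusted p = 0.031), for Rps4x 0.44 ± 0.14 (limma adjusted p = 0.043) and for Rpl4 0.35 ± 0.10 (limma adjusted p = 0.030). At an unadjusted p under 0.05 there were 9. None of these 3 calls held after rescaling, which called 8 other members, all with a negative interaction, where 10.2% of all features were called so. With the length trend removed 2 members were called, both positive, beside 4.88% of features called positive and 7.51% negative. With 1 library left out the count ran from 0 to 17, the latter without DKO chimera replicate 2 and made of 1 positive and 16 negative calls. The values of Rpl4 were 1642 and 1655 TPM in WT and 1096 and 1025 TPM in DKO steady-state libraries, against 1614 and 1509 TPM and 1285 and 1276 TPM in the chimeras.

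Between peritoneal and steady-state alveolar cells, 27 members had a positive interaction, meaning a difference nearer 0 or above it in the peritoneum, and 1, Rps4l, a negative one. Over all features the shares were 17.3% and 11%. Large ones were those of Rpl7 (0.91 ± 0.16, limma adjusted p = 0.0024) and Rps15a (0.88 ± 0.23, limma adjusted p = 0.020). The value of Rpl3l (0.94 ± 0.29, limma adjusted p = 0.035) does not bear on the peritoneum, since the gene had 2 or 3 reads in each peritoneal library and its peritoneal difference on this scale could only lie near 0. After rescaling 10 positive calls and that of Rps4l were left, with Rpl7, Rps15a, Rpl23a, Rps4x, Rpl4 and Rps6 among them and Rpl3l not. Rpl4, Rpl7 and Rps4x kept their call without each of the 8 libraries in turn, whereas the number of members called fell to between 7 and 12 without any one of 7 of them.

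**Figure D4:**
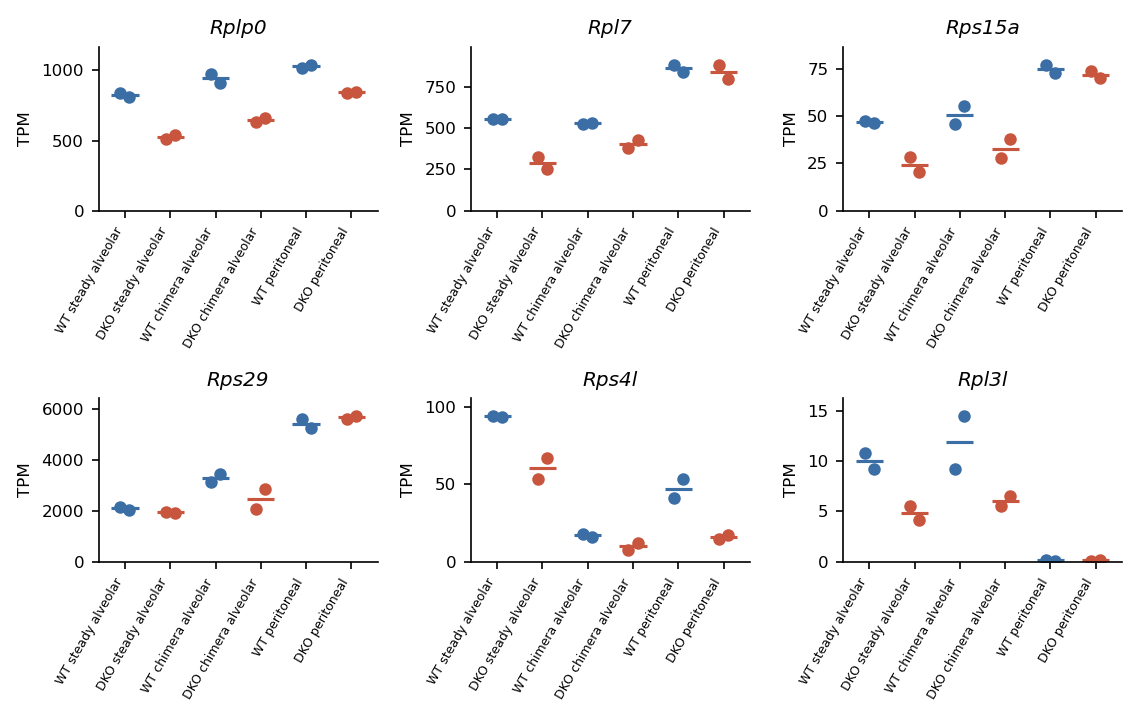
TPM of 6 ribosomal protein genes in each of 12 libraries (points) with group means of 2 libraries (lines), WT in blue and DKO in red. Rpl7 and Rps15a are lower in DKO in alveolar cells and overlap between genotypes in peritoneal cells, Rps4l is lower in DKO in every population, and Rpl3l is near 0 in the peritoneum.

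Several members are paralogs or copies of another member. Rps4l is annotated by RefSeq as a transcribed pseudogene related to Rps4x. It was at 94.5 and 93.4 TPM in WT and 53.8 and 67.2 TPM in DKO steady-state libraries. In the chimeras it was at 18.2 and 16.0 TPM in WT and 7.87 and 12.4 TPM in DKO libraries. Peritoneal libraries had 41.1 and 53.5 TPM in WT and 14.7 and 17.2 TPM in DKO. The groups did not overlap in any population, and the differences were -0.63 ± 0.20 (limma adjusted p = 0.021), -0.73 ± 0.20 (limma adjusted p = 0.021) and -1.50 ± 0.20 (limma adjusted p = 0.00080). The peritoneal difference was larger than that of any other member and kept its call without each library in turn, whereas the steady-state call was lost without 3 of 4 libraries (lowest magnitude -0.48, without DKO steady-state replicate 1) and the chimera call without 3 of 4 (-0.43 without DKO chimera replicate 1). Rps4l lies on the same chromosome as both targeted genes and, in RefSeq's order (GRCm38.p6), 15 tested features from Bhlhe41. Of 68 tested features within 50 on either side of Bhlhe41, 20 were called lower and 7 higher in peritoneal cells, a share of 29.4% lower against 16.1% of all features. The part of this position in the Rps4l result was not tested. Rps4x, the functional namesake, was at 1280 and 1225 TPM in WT and 1326 and 1180 TPM in DKO peritoneal libraries, with overlapping groups.

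Rpl3l encodes a paralog of Rpl3 known for its expression in heart and skeletal muscle. It was at 10.9 and 9.17 TPM in WT and 5.54 and 4.12 TPM in DKO steady-state alveolar libraries, a difference of -0.92 ± 0.20 (limma adjusted p = 0.0041). Chimera libraries had 9.18 and 14.5 TPM in WT and 5.52 and 6.53 TPM in DKO, a difference of -0.84 ± 0.20 (limma adjusted p = 0.012) that was lost without WT replicate 2 or DKO replicate 1, at -0.54 and -0.74. The groups did not overlap in either setting. In the 4 peritoneal libraries Rpl3l had 2 or 3 reads each, 0.116 to 0.180 TPM. Rpl3 itself was at 73.9 and 68.8 TPM in WT and 53.6 and 48.7 TPM in DKO steady-state libraries, a fall of 0.47, and fell by 0.59 in the chimeras.

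Rps27l, a paralog of Rps27 induced by p53, fell in all 3 populations, by 0.50, 0.57 and 0.54. In peritoneal cells it was at 265 and 248 TPM in WT and 185 and 167 TPM in DKO libraries, and that call was lost without WT replicate 1 (-0.49) or DKO replicate 2 (-0.46). Rps27 had 3 to 16 reads per library and did not pass in any population. Rpl22l1, which replaces Rpl22 in some cells, was at 25.3 and 29.8 TPM in WT and 18.5 and 16.5 TPM in DKO steady-state libraries, a fall of 0.62 that was lost without WT or DKO replicate 2 (-0.51 and -0.54). In the chimeras it overlapped between genotypes, at 21.4 and 15.7 against 15.5 and 19.5 TPM, as it did in peritoneal cells. Its namesake Rpl22 fell in both alveolar settings, by 0.57 and 0.50. Rpl36al and Rpl36a, which encode almost the same protein, fell together in the alveolar settings, by 0.52 and 0.82 in steady state and by 0.63 and 0.59 in the chimeras. Rpl7l1, a Rpl7-related protein of ribosome assembly, fell by 0.48 and 0.36. Rpl10 fell by 0.66 in each setting, calls that were lost without WT or DKO steady-state replicate 2 (-0.61 and -0.39) and without 3 of the 4 chimera libraries (-0.67 to -0.50). The chimera calls of Rpl36a and Rpl7l1 were lost without DKO replicate 1 (-0.37 and -0.26), among others. Rpl39 fell by 0.77 in steady state, a call lost without DKO replicate 2 (-0.65), and did not pass in the chimeras (-0.18, limma adjusted p = 0.53).

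Rpl39l, a paralog of Rpl39 known from mouse testis, was uneven. It was at 3.78 and 1.56 TPM in WT and 3.28 and 10.5 TPM in DKO steady-state libraries, and at 0 and 0.788 TPM in WT and 1.75 and 1.97 TPM in DKO chimera libraries. It had 0 to 71 reads per library, its steady-state groups overlapped, and it was the member furthest above 0 in both alveolar settings without passing (1.01, limma adjusted p = 0.099, and 1.10, limma adjusted p = 0.11). Rpl34, one of the CACGTG-bearing members, was the only other member above 0 in steady state, at 4.95 and 3.84 TPM in WT and 4.79 and 5.72 TPM in DKO libraries, and its groups overlapped.

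The WT groups show the members' levels by tissue and setting. Any batch or allotype that goes with tissue or setting cannot be told apart from it, and WT cells of the chimeras were CD45.1+. Against WT peritoneal cells, WT steady-state alveolar cells had 63 members lower, 3 higher and 17 that did not pass, where 26.7% of all features were called lower and 41.3% higher. The member median was -0.57, against 0.16 over all features, and after rescaling 71 were lower, beside 34.6% of features. Rps29 was at 2157 and 2045 TPM in alveolar and 5589 and 5238 TPM in peritoneal cells, a difference of -1.37 ± 0.13 (limma adjusted p = 4.4e-06). Rps12 and Rps19 were lower by 1.22 and 1.21 on the log2 scale. The 3 higher in alveolar cells were Rpl3l (3.27 ± 0.20, limma adjusted p = 1.9e-07), Rps4l (0.99 ± 0.20, limma adjusted p = 0.0012) and Rpl5 (0.64 ± 0.19, limma adjusted p = 0.013), of which Rpl5 rests on 22 to 34 reads per library and lost its call without either of 2 libraries.

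Against WT steady-state alveolar cells, WT cells of the chimeras had 40 members higher, 4 lower and 39 that did not pass, where 8.06% of all features were called higher and 32.9% lower. The member median was 0.26, against -0.18 over all features, and after rescaling 60 were higher and 1, Rps4l, lower. With the length trend removed 20 were higher, beside 14.7% of features, and 7 lower, beside 11.2%, with a member median of 0.16. With 1 of the 4 libraries left out the calls numbered 23 without WT steady-state replicate 1, 17 without replicate 2, 27 without WT chimera replicate 1 and 19 without replicate 2. Highest were Rps23 (1.19 ± 0.26, limma adjusted p = 0.0057), Rpl27 (0.76 ± 0.21, limma adjusted p = 0.017) and Rps27a (0.72 ± 0.19, limma adjusted p = 0.013), a gene that encodes ubiquitin fused to a small-subunit protein. Rps23 was at 9.0 and 6.02 TPM in steady state and 15.1 and 21.7 TPM in the chimeras, and lost its call without WT steady-state replicate 2 (0.93), as Rpl27 and Rps27a did without either of 2 libraries. The 3 lowest were Rps4l (-2.40 ± 0.20, limma adjusted p = 3.4e-05), Rpl39l (-1.39 ± 0.47, limma adjusted p = 0.039) and Rpl22l1 (-0.56 ± 0.15, limma adjusted p = 0.016), of which Rps4l kept its call without each library.

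Transcript length moved with these differences. The members are short: their median length was 710 bases against 2713 bases over all features tested, and 58 of the 83 were in the shortest of 10 length classes of equal size (30 to 933 bases). Among features that are not members, the median chimera genotype difference ran from -0.23 in the shortest class to 0.16 in the longest. Members of the shortest class had a median of -0.53 there. In steady state the other features ran from -0.18 to -0.33, with a median of -0.44 for the members of the shortest class, and in peritoneal cells from -0.14 to -0.03, with -0.18 for the members. Between WT settings the other features ran from 0.10 to -0.57, with 0.34 for the members of the shortest class, and between WT tissues from 0.05 to 0.44, with -0.57. Of the other features in the shortest class, 22.2%, 26.3% and 17.9% were called lower, and 7.42%, 4.43% and 3.67% higher, in the steady-state, chimera and peritoneal comparison. The part of length in the members' results was not tested. With the length trend of the other features removed in each library, 43 members fell in steady state (median -0.27, against 18.7% of all features called lower). In the chimeras 27 fell (median -0.22, against 11.2%), and 9 when DKO chimera replicate 1 was also left out. In peritoneal cells 4 fell, beside 8.71% of features, and 4 rose, among them Rpl13a, Rps3a1 and Rps20, beside 10.8%, with a median of 0.04. Rplp0, Rps15a and Rpl3l fell in both alveolar settings in that fit as well. Spearman's rho of length with the steady-state difference was -0.34 and with the chimera difference 0.15 over 83 members, given as a description.

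**Figure D5:**
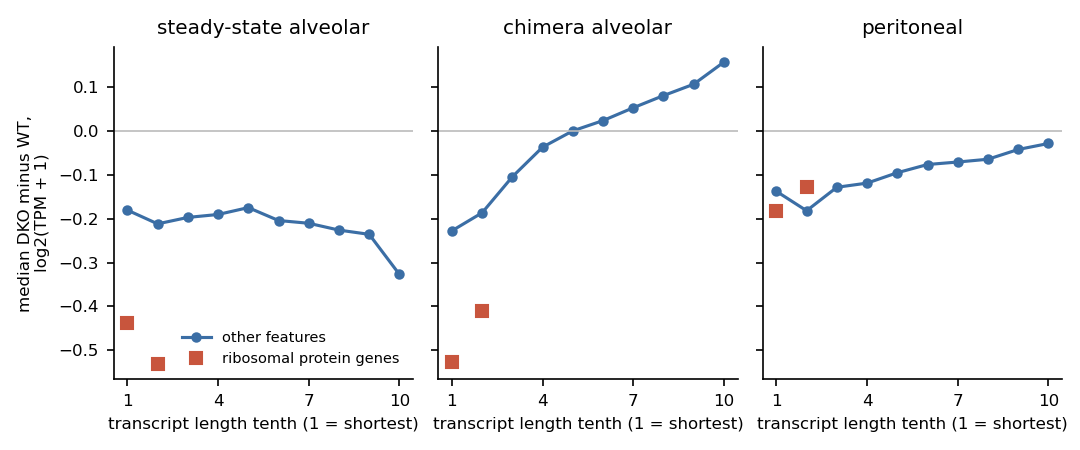
Median genotype difference (DKO minus WT, log2(TPM + 1)) by 10 classes of transcript length, from shortest to longest, for features that are not ribosomal protein genes (blue line) and, where a class holds at least 5 of them, ribosomal protein genes (red squares). In the chimeras the blue line climbs from -0.23 to 0.16, and in the shortest class the members lie under it, at -0.44 in steady state and -0.53 in the chimeras.

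Other genes of translation were taken from lists, whose counts stand beside 39.4%, 13.6% and 16.1% of all features called lower in the steady-state, chimera and peritoneal comparison, or 17.9%, 15.1% and 7.87% after rescaling. Of ribosomal proteins with other names, Gnb2l1 (Rack1, a signalling scaffold on the small subunit) fell in both alveolar settings, by 0.56 and 0.46. Fau, a small-subunit protein fused to a ubiquitin-like protein, did not pass in steady state (-0.15, limma adjusted p = 0.32) and fell in the chimeras, by 0.58. Neither passed in peritoneal cells, with differences of -0.14 for Fau and -0.01 for Gnb2l1. Of 7 genes listed with the translation elongation factors, all 7 fell in steady state, 3 in the chimeras and 3 in the peritoneum. Higher calls numbered 0, and after rescaling 1, 3 and 2 fell. Eef1e1, listed for its symbol only and not an elongation factor, was among the steady-state and peritoneal calls (-0.56 and -0.50). Eef1a1 fell by 0.43 in steady state and did not pass in the chimeras (-0.07, limma adjusted p = 0.60). A list of 16 other TOP transcripts includes Gas5, Snhg1 and Snhg8, which are non-coding. Of the 16, 15 fell in steady state, 8 in the chimeras and 0 in the peritoneum, and 0 rose. After rescaling 10, 8 and 0 of them fell. Among them Npm1, a nucleolar chaperone, fell by 0.79 and 0.43 in the alveolar settings, while Pabpc1 and Eif4b fell in steady state (-0.49 and -0.49) and were at 0.01 and -0.02 in the chimeras. Of 24 ribosome assembly factors, 22, 8 and 11 fell and 0 rose, and after rescaling 14, 9 and 7 fell. Of 76 mitochondrial ribosomal protein genes, which build a separate ribosome, 41, 50 and 22 fell and 0 rose, and after rescaling 8, 55 and 10 fell and 2, 0 and 0 rose. The medians of the mitochondrial list were -0.28, -0.38 and -0.23, beside -0.48, -0.51 and -0.15 for the cytosolic members, and its steady-state median after rescaling was -0.02. Of 14 genes of growth control, 1 rose and 6 fell in steady state, 3 rose and 2 fell in the chimeras, and 1 rose and 1 fell in the peritoneum. Beside these, 12.2%, 13.7% and 6.8% of all features were called higher. Counts of this list and of the dissociation list below are those before rescaling. Myc fell in steady state (-0.92 ± 0.29, limma adjusted p = 0.023) and did not pass elsewhere. Mxd1, which competes with Myc for Max, rose in both alveolar settings, by 1.10 and 1.56. Mtor fell in steady state (-0.41) and rose in the chimeras (0.43), Tsc2, an inhibitor of mTOR signalling, rose in the chimeras (0.41), and Eif4ebp1, a repressor of translation initiation, fell in both (-0.56 and -0.35). Of 13 genes of the early response to cell dissociation, 8 fell in steady state, 2 rose in the chimeras and 6 rose in the peritoneum; their part in the members' results was not tested.

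Members with and without the TOP-like run at the start were set side by side. In steady state the medians were -0.41 for 29 tested members with it and -0.51 for 33 without, and 20 and 23 of them fell. In the chimeras they were -0.54 and -0.53, and in the peritoneum -0.20 and -0.16. The 6 members with CACGTG had medians of -0.35, -0.37 and -0.17 in the 3 populations, beside -0.49, -0.55 and -0.17 for 56 tested members without it. These are descriptions of windows around annotated starts.

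The authors' deposited table of fold changes, made on normalized counts, gives an adjusted p for 83 members in each alveolar comparison and 82 in the peritoneal one. In the authors' deposited table there were 27 members lower and 0 higher in steady state, 53 lower and 0 higher in the chimeras, and 15 lower and 2 higher in the peritoneum. The authors' deposited table gives member medians of -0.23, -0.49 and -0.04 on the log2 scale, beside medians of 0.00 over all features with a p in each comparison. Of those features, the authors' deposited table has 17.1%, 10.4% and 14.8% lower, so the peritoneal member count is near that background.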

How the data were processed

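Polyadenylated RNA of 12 libraries was sequenced. Per the submitters' processing notes, which give no roles, the named builds are GRCm38.p3 and mm9, and the named tools are DESeq2 1.2.10, HTSeq 0.5.3, TopHat 1.4.1, Bowtie2 and Bowtie 1.0.0; how multiply mapping reads were treated is not given in the sources used here. Per the file headers, the authors deposited TPM per feature and library, and for each WT and DKO pair of groups a mean normalized count (a signal scaled by their size factors), a log2 fold change and an adjusted p-value. Another 6 samples, of ChIP-seq, were not used here, 0 per-sample columns were left unused, and 0 members carried the files' duplicate mark.

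TPM was tested with limma 3.58.1 in R 4.3.3 on log2(TPM + 1): 6 group means over all 12 libraries, 6 residual degrees of freedom, trended empirical Bayes, features of at least 1 TPM in 2 libraries, Benjamini-Hochberg over all features, two-sided, threshold 0.05. Differences on this scale understate changes of low genes. Whole reads and transcript lengths were recovered from TPM and the mean normalized counts; 100% of values were whole within 0.01 reads, which gave depths and a voom alternative. Read numbers under about 30 limit precision, by counting error alone. The fit was checked on simulated counts with known changes in the steady-state DKO libraries. These counts held no library-wide shift, length trend or noisier library, so the check does not bear on such conditions.

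The members and lists were chosen with earlier results of these data known. Named genes were up to 5 highest and 5 lowest called per genotype comparison, paralogs with their namesakes, stalk genes, Rpl5, Rpl11, Rpl38, Rpsa, Rps3, Rps6, Rps19 and Rps24, up to 3 per interaction by size, and up to 3 each way in the WT comparisons; Rpl30, Rpl34, Rpl35, Rpl23, Rps3a1 and Rps20 outside that rule, where named, were chosen after their values or windows were seen. A few genes within the rule are not reported here. Alternatives were pseudocounts of 0.1 and 5, other filters, rescaling by median of ratios or by non-members, only the groups compared, a replicate block, voom, and each library left out. Added after seeing the data were voom with median-of-ratios factors, removal of a lowess length trend (span 0.3), and rescaling or length removal without DKO chimera replicate 1.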

Additional observations from a re-analysis of the deposited data

Results flagged for a closer look

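The genotype difference of 20 named results differed between populations by the interaction term of the limma fit, over 48 named members tested in each of 2 interactions. Values are the second population's DKO minus WT difference less that of steady-state alveolar cells, in log2(TPM + 1).

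For the chimeras, the interaction was 0.35 for Rpl4, 0.56 for Rpl7 and 0.44 for Rps4x, with limma adjusted p between 0.030 and 0.043. After rescaling 0 of these 3 passed, and with the length trend removed Rpl7 and Rps4x passed.

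For peritoneal cells 17 named members differed, with limma adjusted p between 0.0024 and 0.048. Large-subunit genes were Rpl7 (0.91), Rpl23a (0.82), Rpl22l1 (0.69), Rpl36a (0.66), Rpl4 (0.55), Rpl6 (0.47), Rpl22 (0.41), Rpl3 (0.39) and Rpl13a (0.32), and the stalk gene was Rplp0 (0.37). Small-subunit genes were Rps15a (0.88), Rps4x (0.74), Rps6 (0.69), Rps9 (0.37) and Rps3 (0.37). Rps4l was the one below 0, at -0.87. Rpl3l is at 0.94, but with 2 or 3 reads in each peritoneal library its peritoneal difference could only lie near 0, so this value restates its steady-state fall. After rescaling 7 of the 17 passed (Rpl4, Rpl7, Rpl23a, Rps4l, Rps4x, Rps6 and Rps15a), and with the length trend removed 15 did.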

How the results depend on the processing

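Values are members past the threshold, in either direction, and the cause of each change was not tested. In the genotype comparisons all were lower unless stated. In steady state (main count 58) they numbered 22 after rescaling and 23 by voom with median-of-ratios factors; in the chimeras (65) 13 with only the groups compared, 27 with the length trend removed, 9 with it removed and DKO chimera replicate 1 left out, and 36 rescaled without that library; in the peritoneum (15) 7 without a filter, 2 rescaled, 3 by voom with those factors and 8 (4 lower and 4 higher) with the length trend removed. The chimera interaction (3, all positive) gave 0 without a filter, 0 with only the groups compared, 0 by voom, 14 by voom with those factors and 8 rescaled, all of these negative, 0 under either combination without DKO chimera replicate 1, and 6 under the replicate block (4 positive and 2 negative); the peritoneal interaction (28, 1 of them negative) gave 13 without a filter, 11 rescaled and 12 by voom with those factors; the WT setting comparison (44, 40 of them higher) gave 27 (20 higher) with the length trend removed. Pseudocounts of 0.1 and 5, the filter at 5 TPM and scaling to non-members kept every count of members within 1.5 times.

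With 1 library left out the counts ran from 49 to 56 in steady state (55 lower and 1 higher without DKO replicate 1), 38 to 66 in the chimeras, 2 to 3 in the peritoneum, 0 to 17 (1 positive and 16 negative without DKO chimera replicate 2) and 7 to 29 in the interactions, 59 to 63 between WT tissues and 17 to 27 between WT settings. The share ratio ran from 0.758 to 0.770, 0.640 to 0.794 and 0.895 to 0.920, and in steady state was 0.827 without the 20 highest other features. Of the named calls, those past the threshold without every library in turn were 27 of 37, 17 of 38 and 1 of 12 in the 3 genotype comparisons. With the length trend removed, Rpl8 in the peritoneum was at 0.013, of opposite sign, as was Rplp1 in the chimeras at 0.016 with DKO chimera replicate 1 left out as well.

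The replicate numbers pair nothing by label; same-numbered libraries correlated by -0.043, 0.126 and -0.063 in their deviations from group means. With the replicate block 61, 64 and 17 members fell in the 3 genotype comparisons. Keeping duplicate-marked members was void, since 0 were marked.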
